A study of Mus musculus with 9 samples.

Results

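The 23 circRNA probes described here gave a lower signal in mouse livers with hepatic ischemia-reperfusion injury (IRI) than in sham livers and in livers given ischemic preconditioning (IPC) before the same injury. They were chosen from 14236 circRNA probes on the array, of which 10536 counted as detected because the scanner marked them well above background on 3 or more of the 9 arrays. A probe was a member when its 3 IRI values in the authors' log2 table all lay below its 6 sham and IPC values, and when its IRI mean was at least 1.5-fold below both other means, taken on the log2 scale. The choice used the IRI vs. sham and IPC vs. IRI differences themselves, so those differences are described below without a test. The members make up 0.218% of the detected probes.

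The series holds 9 arrays, each of 1 liver RNA sample from male C57BL/6 mice, with 3 samples in each group. The 3 samples of a group were drawn at random from a larger group of mice, whose age the sources used here do not give. In sham mice the portal vein and hepatic artery were isolated but not clipped. In IRI mice they were clipped for 1 h, which made most of the liver ischemic, and the blood flow was then restored for 6 h. In IPC mice the same sequence followed a short ischemia of 10 min and a reperfusion that also lasted 10 min, so the IPC livers went through the long ischemia as well. All mice were fasted, anesthetized and operated on. Each sample was liver tissue, and the methods do not say which part of the liver it came from. A lower signal from fewer cells of a type and one from less circRNA per cell cannot be told apart.

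A circRNA is made when the spliceosome joins the end of an exon back to the start of the same or an earlier exon, which closes the RNA into a ring. The ring has no free ends and therefore resists RNase R, the exonuclease used here to digest linear RNA before labeling. For the same reason circRNAs usually outlast the linear transcripts of their host genes, and the level of a circRNA reflects its production, its slow loss and its dilution as cells grow. In liver ischemia-reperfusion, hepatocytes run short of ATP while blood flow is stopped, and the return of oxygen brings reactive oxygen species, neutrophils and further cell death. Preconditioning is a short stop of flow before the long one, and it is known to lessen this damage.

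The deposited files give each probe by the array maker's ID and do not pair it with a circRNA name, a host gene or a sequence. The members are therefore described by ID for 4 of them and otherwise by their rank, from 1 for the largest IRI deficit to 23 for the smallest. The deficit is the mean of the sham and IPC means minus the IRI mean. The liver label could not be checked against marker genes for the same reason. The methods name several probes for each transcript, so 23 probes may stand for fewer than 23 circRNAs.

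Relative to sham, the IRI level of the 23 members was lower by 1.56 to 3.38 times, with a median of 1.83 times. Relative to IRI, the IPC level was higher by up to 3.59 times, with a median of 2.17 times. On the log2 scale the median difference was -0.87 for IRI minus sham and 1.11 for IPC minus IRI, while over all detected probes these medians were -0.01 and 0.00. For 9 members both differences were at least 1 on the log2 scale, and for 7 members neither was. The IPC minus IRI difference was the larger of the 2 in size for 15 of the 23 members. Both differences share the same 3 IRI arrays.

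**Figure D1:**
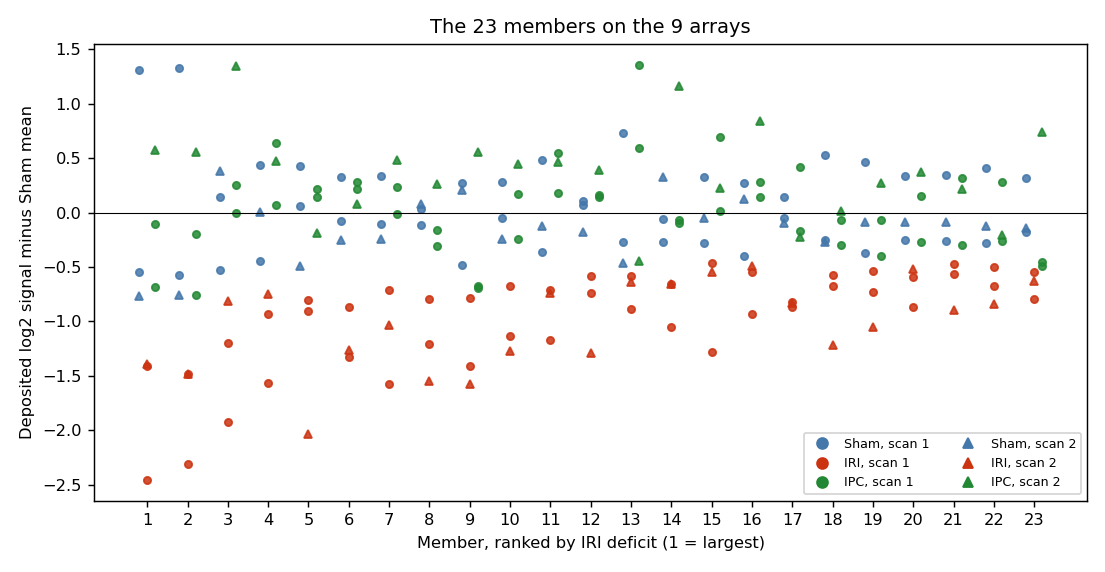
Deposited log2 signal of each of the 23 members on each of the 9 arrays, minus the member's sham mean. Color marks the group (blue sham, red IRI, green IPC) and shape the scan (circles scan 1, triangles scan 2). For every member the 3 red points lie below the 6 others, as the selection rule fixed, with a median gap of 0.30.

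On the deposited values with all 9 arrays, the widest deficit was that of ASCRP4000662. Its deposited log2 values were 9.36, 11.43 and 9.57 on the sham arrays, 8.71, 8.72 and 7.66 on the IRI arrays, and 9.43, 10.02 and 10.69 on the IPC arrays. The group means were 10.12 ± 1.14 in sham, 8.36 ± 0.61 in IRI and 10.05 ± 0.63 in IPC (SD, n = 3 each). The IRI mean was 3.37-fold below sham and 3.21-fold below IPC. Sham replicate 2 was the highest of its 9 arrays, and without it the IRI minus sham difference was -1.10 in place of -1.75.

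The member of rank 2 ran almost in parallel with it. Its values were 8.53, 10.62 and 8.72 in sham, 7.81, 7.81 and 6.98 in IRI, and 8.54, 9.09 and 9.85 in IPC. On every array it lay 0.68 to 0.93 below ASCRP4000662, and the 2 profiles had a Pearson correlation of 0.998 over the 9 arrays. With the group means removed the correlation was 0.996, the only one above 0.99 among the 253 pairs of members. The rule constrained the single arrays of both probes, so these correlations are a description. The 2 spots lay 72 rows and 13 columns apart on an array of 192 rows and 82 columns. On the background-corrected signals the correlation over the 9 arrays was 0.995. Whether the 2 probes detect the same circRNA is not stated in the files, and they are not counted as independent here. Sham replicate 2 enlarged the IRI minus sham difference of this member as well, which was -1.76 with that array and -1.09 without it.

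**Figure D2:**
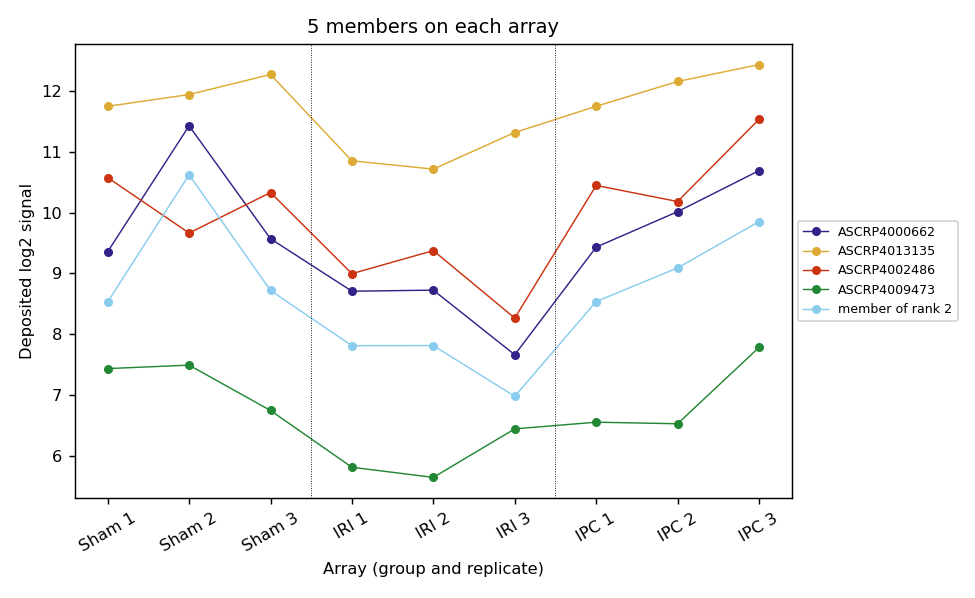
Deposited log2 signal of 5 members on each of the 9 arrays, joined by lines within a member. ASCRP4000662 and the member of rank 2 keep a nearly constant distance of 0.68 to 0.93, and ASCRP4013135 has the highest signal of the 5 on all 9 arrays.

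ASCRP4013135 had the highest mean signal of the members. It read 11.75, 11.94 and 12.27 in sham, 10.85, 10.72 and 11.32 in IRI, and 11.75, 12.16 and 12.43 in IPC. The SD was at most 0.35 in any group. The IRI mean of 10.96 was 2.04-fold below the sham mean of 11.99 and 2.22-fold below the IPC mean of 12.11. The highest IRI array was 0.43 below the lowest of the 6 others.

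ASCRP4002486 combined a large IRI deficit with the highest IPC level relative to sham. Its values were 10.58, 9.66 and 10.33 in sham, 8.996, 9.37 and 8.27 in IRI, and 10.45, 10.18 and 11.53 in IPC. Its IRI mean was 2.48-fold below sham and its IPC mean 3.59-fold above IRI, the latter the largest such difference of any member on the deposited values. On the background-corrected signals its IPC minus IRI difference was 1.76, below the 1.80 of ASCRP4000662. IPC replicate 3 was the highest of its 9 arrays. The gap between its highest IRI array and its lowest sham or IPC array was 0.29.

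ASCRP4009473 stood at the other end, with the lowest IPC level relative to sham. It read 7.43, 7.49 and 6.74 in sham, 5.81, 5.64 and 6.44 in IRI, and 6.55, 6.53 and 7.78 in IPC. Its groups were separated by only 0.08, and 2 of the IPC arrays were barely above IRI replicate 3. The IPC minus IRI difference was 0.99 and became 0.57 without IPC replicate 3. The IRI minus sham difference was -1.26 and did not move by over 1.5 times with any 1 array left out.

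The other 18 members had IRI minus sham differences of -1.25 to -0.64 and IPC minus IRI differences of 0.59 to 1.47. For 4 of them, those of ranks 13, 14, 15 and 23, a difference moved by over 1.5 times with 1 array left out. For rank 23, which had the smallest difference that passed, IPC minus IRI was 0.59 with all arrays and 0.18 without IPC replicate 3. For rank 13 it was 1.21 and became 0.78 without IPC replicate 1, and its IRI minus sham difference of -0.70 became -0.34 without sham replicate 3. For rank 14 it was 1.12 and became 0.70 without IPC replicate 3. For rank 15 the IRI minus sham difference was -0.76 and became -0.50 without IRI replicate 3. The signs of these differences cannot change with an array left out, because the rule put every IRI value below the 6 others.

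When the whole rule was applied again with 1 array left out in turn, 13 of the 23 probes met it in all 9 cases. The order of the arrays is kept by construction here, and only the demand on size could fail. All 23 met it without sham replicate 1 or IPC replicate 1, and the fewest, 18, met it without sham replicate 2. The number of probes that met the rule in all was 22 to 30 when a sham or IPC array was left out. It was 56 without IRI replicate 1, 56 without IRI replicate 2 and 72 without IRI replicate 3. Leaving out an IRI array loosens the demand that every IRI value be lowest, which can only add probes. It also changes the IRI mean, which can add or remove them, so nothing is read from the larger counts.

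At the edges of the rule, the smallest difference of means that passed was 0.587, and the next probe in the same order of groups missed it at 0.572. The narrowest gap between the highest IRI array and the lowest other array that passed was 0.051, while the nearest probe on the other side overlapped by 0.021. In all, 100 detected probes (0.949%) had the 3 IRI values below the 6 others, and 77 of them differed too little in their means. There were 74 probes (0.702%) whose IRI mean was at least 1.5-fold below both other means, and for 51 of them the arrays overlapped. Leaving out IRI replicate 2 ended the overlap for 19 of these 51, leaving out IRI replicate 3 for 11 and leaving out IRI replicate 1 for 9. Leaving out sham replicate 2 ended it for 7, and leaving out any other sham or IPC array for 1 to 3. A probe whose overlap lay between 1 IRI array and 1 other array counts under both.

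**Figure D3:**
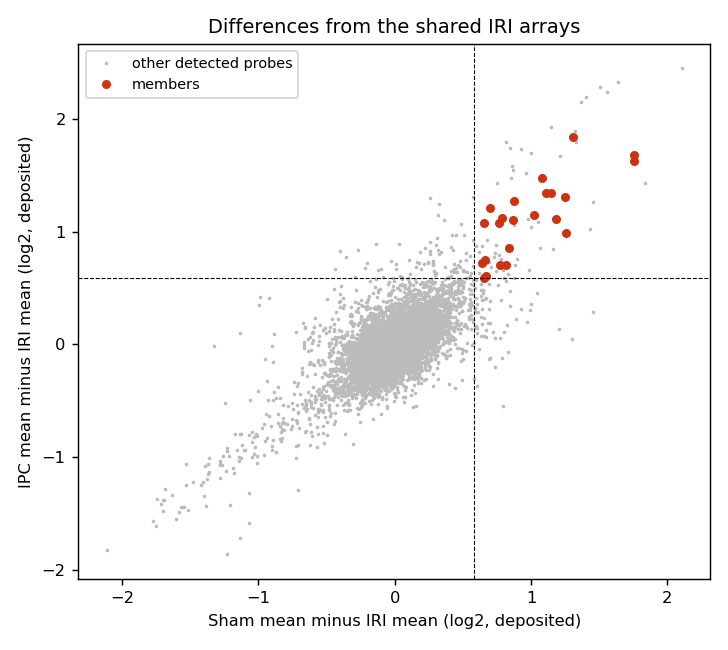
Sham minus IRI (x axis) and IPC minus IRI (y axis) differences of the group means of the deposited log2 values, for the 23 members (red) and the other detected probes (gray). Dashed lines mark a 1.5-fold difference on each axis. The gray points above and to the right of both lines are the 51 probes whose arrays overlapped, and the upward tilt of the cloud includes the share that comes from subtracting the same IRI means on both axes.

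The same rule was counted for the other groups and for the opposite direction, with no test. With sham in the place of IRI, 18 probes were lower in sham than in both injured groups, and 9 were higher. In IPC 0 probes were lower than in both other groups and 6 were higher. Probes higher in IRI than in sham and IPC numbered 7. By the size of the mean differences alone, without the demand on overlap, the order was the other way round, with 116 probes higher in IRI and the 74 lower ones.

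All 23 members were well above background on all 9 arrays, as were 56.5% of the detected probes, and no member spot was marked as an outlier on any array. None of the values given here is therefore a bound set by the background. The mean deposited log2 signal of the members was 6.15 to 11.69. Signals of different probes are not set against each other as levels of circRNAs, since probes differ in how strongly they bind.

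The deposited values ranked closer to the spot medians than to the background-corrected signal. The rule was therefore also read on the scanner's background-corrected signal, quantile normalized on the log2 scale. There all 23 members kept the IRI arrays below the 6 others, an order that 1.03% of the detected probes had, and 22 met the whole rule. These signals come from the same arrays and are no separate evidence. The exception was rank 23, whose IPC minus IRI difference was 0.55. The median differences were -1.03 for IRI minus sham and 1.25 for IPC minus IRI, and the deficit was larger than on the deposited values for 18 members. On these signals 57 probes (0.541%) met the rule, of which 35 were not members. Among the 57, 32 were well above background on every array, where all 23 chosen on the deposited values were, so this share depended on the values used.

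The rule treats IPC and sham alike, which leaves the sign of their difference free but limits its size. Since both means had to lie at least 1.5-fold above IRI, a member with a small deficit had to have close IPC and sham means. For the 8 members of ranks 16 to 23 a 1.5-fold IPC minus sham difference was barred on the deposited values, and for rank 23 the largest difference the rule allowed was 0.07. The IPC vs. sham values below are therefore partly fixed by the choice of members. On the deposited values the IPC minus sham difference of the members ran from -0.27 to 0.53, with a median of 0.09 against -0.01 over all detected probes. Single arrays moved this median to between 0.01, without IPC replicate 3, and 0.26, without sham replicate 3. It was above 0 for 15 members and below 0 for 8, and it was within 0.2 of 0 for 13. The IPC arrays all lay above the sham arrays for 1 member, that of rank 12, and such a split was found for 3.12% of the detected probes. The reverse, which 2.98% of the probes had, was found for 0 members. On the background-corrected signals 0 members had either split, beside 3.06% of the probes with IPC above sham and 3.02% with sham above IPC.

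In limma's moderated test on the background-corrected signals of all 9 arrays, 0 of the 23 members were higher in IPC than in sham by at least 1.5-fold with an unadjusted P below 0.05, where 1.47% of the 10534 probes tested were. None was lower by the same criteria, where 0.873% were. Because of the limit the rule sets on size, nothing is read from these 0 counts against the shares of all probes. The unadjusted P was at least 0.209 for every member, and 0 of the 23 were below 0.05 in the methods' t-test as well. Over all probes 253 had an unadjusted P below 0.05 and 0 passed the Benjamini-Hochberg adjustment in limma, where the smallest adjusted P was 0.150. On the deposited values limma also gave 0 members in either direction, beside 0.626% higher and 0.199% lower probes.

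These P-values do not show that IPC and sham levels were alike. The standard error of the IPC minus sham difference was 0.25 to 0.57 on the log2 scale. The 95% interval covered 0 for all 23 members, and for none did it lie wholly within 1.5-fold in either direction. It reached 1.5-fold higher in IPC for 21 members and 1.5-fold lower for 11.

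The 4 named members show how far single arrays moved this difference. For ASCRP4000662 it was 0.00079 with an interval of -1.26 to 1.26, and it became 0.68 without sham replicate 2 and -0.39 without sham replicate 1. For ASCRP4013135 it was 0.06 with an interval of -0.63 to 0.75, and it lay between -0.10, without sham replicate 1, and 0.23, without sham replicate 3. Neither had a settled sign. ASCRP4002486 had the largest difference of the members, 0.50, with an interval of -0.34 to 1.34 and an adjusted P of 1.00 from limma. The difference was 0.18 without IPC replicate 3 and 0.28 without sham replicate 2, and above 0 with any 1 array left out. ASCRP4009473 had -0.36, with an interval of -1.57 to 0.84 and an adjusted P of 1.00 from limma. Its difference was -0.07 without IPC replicate 1 or IPC replicate 2, -0.20 without sham replicate 1 or sham replicate 2, -0.69 without sham replicate 3 and -0.95 without IPC replicate 3.

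**Figure D4:**
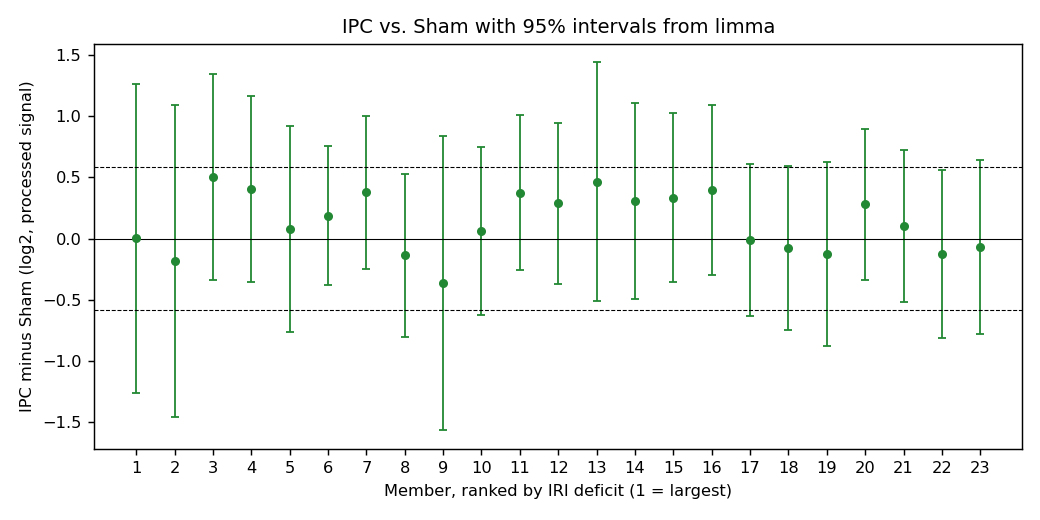
IPC minus sham difference of each member on the log2 scale of the quantile-normalized, background-corrected signal, with the 95% interval from limma on all 9 arrays (n = 3 per group). Dashed lines mark a 1.5-fold difference in each direction. All 23 intervals cross 0, and none fits between the dashed lines.

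The arrays were read in 2 scans, with sham replicate 1, IRI replicate 2 and IPC replicate 3 in scan 2 and the other 6 arrays in scan 1. The scanner marked 46.8% to 63.3% of the probes as well above background in scan 1 and 77.3% to 80.6% in scan 2. The rule fixed the signs of IRI minus sham and IPC minus IRI within each scan, and only their sizes are described. The median IRI minus sham difference of the members was -0.96 in scan 1 and -0.79 in scan 2. The median IPC minus IRI difference was 0.95 in scan 1 and 1.35 in scan 2. The difference reached 1.5-fold in scan 1 for 22 members in IRI vs. sham and 18 in IPC vs. IRI, and in scan 2 for 19 and 22 members. The rule required 1.5-fold of the pooled differences, which average the scans. These counts are therefore partly fixed, and nothing is read from them.

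The sign of IPC minus sham, which the rule did not fix, was not the same in both scans for most members. In scan 1, with 2 arrays per group, it was above 0 for 10 members and its median was -0.03. In scan 2, with 1 array per group, it was above 0 for 21 members and its median was 0.46. Only 9 members were above 0 in both. The pair of ranks 1 and 2 went furthest apart, and for ASCRP4000662 the difference was -0.78 in scan 1 and 1.33 in scan 2. Since scan 2 holds 1 array of each group, the scan and the single mice in it cannot be told apart, and the difference between the scans was not tested.

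**Figure D5:**
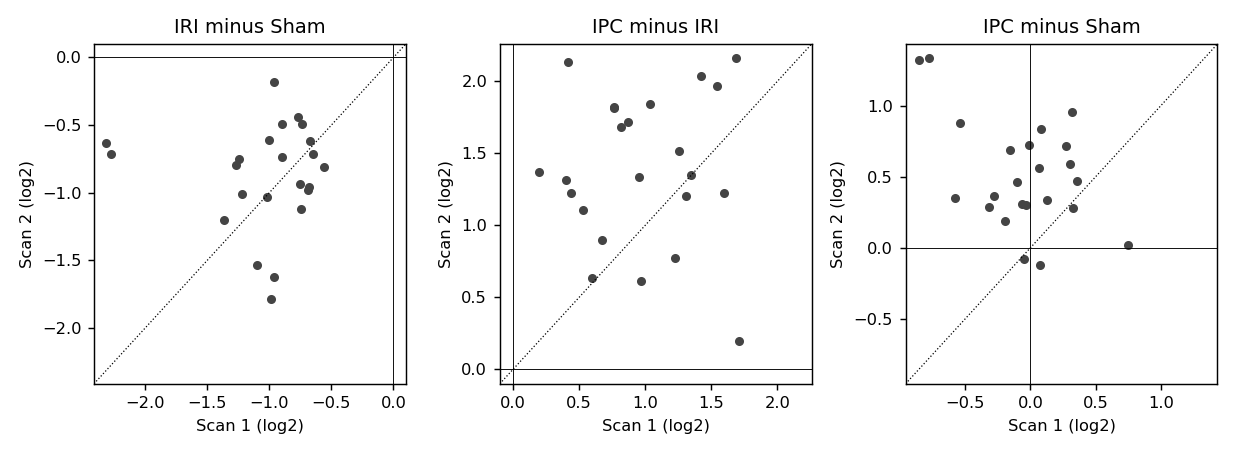
Differences between groups of the 23 members on the deposited log2 values, from the 6 arrays of scan 1 (x axis) and the 3 arrays of scan 2 (y axis). The dotted line marks equal values. The rule fixed IRI minus sham below 0 and IPC minus IRI above 0 in both scans, and IPC minus sham is above 0 for 10 members in scan 1 and 21 in scan 2.

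Within the groups, the members were not spread evenly over the arrays, which is given here as a description with no test. IPC replicate 3 was the highest IPC array for 14 of the 23 members (60.9%) and for 39.0% of all detected probes. IPC replicate 1 was the lowest for 11 members (47.8%) and for 28.9% of the detected probes. IRI replicate 3 was the lowest IRI array for 13 members (56.5%) and for 31.1% of the detected probes, while IRI replicate 1 was the lowest for 1 member (4.35%) and for 34.7%. Sham replicate 1 was the lowest sham array for 10 members (43.5%) and for 37.8% of the detected probes. The rule acted on these same single values, and the members are not independent of each other.

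The pairs that ran most alike after ranks 1 and 2 were those of ranks 4 and 11, with a correlation of 0.945 with the group means removed, ranks 3 and 16, with 0.939, and ranks 3 and 14, with 0.909. These were picked as the highest of 253 pairs, over which the median correlation was 0.11. The closest 2 member spots were 1 row and 2 columns apart, and the others spread from row 11 to 181 and column 5 to 77. Ranking the members by deficit on the background-corrected signals gave nearly the same order, with a Spearman correlation of 0.88.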

How the data were processed

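Total RNA of 9 mouse livers was treated with RNase R, labeled with 1 dye and hybridized to Arraystar mouse circRNA arrays. The authors deposited each array's scanner output, made with Agilent Feature Extraction 11.0.1.1 per the submitters' processing notes. The processed signal in these deposited files is an intensity on a linear scale with the background taken off, and the flags, other values of 0 or 1, mark spots well above background. A table of log2 values was deposited by the authors too, with array medians of 5.36 to 5.38. Its quantile normalization is stated in the methods and the sources used here do not give its background treatment. Its ranks correlated at 0.994 to 0.999 with the spot medians and at 0.967 to 0.996 with the processed signal. The number of arrays limits the precision. The labels number the replicates and do not say which mice they came from, so P-values measure the spread between these samples.

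The members were found on the deposited log2 table. For IPC vs. sham, log2 processed signals without outlier or control spots were quantile normalized and fitted with limma 3.58.1 in R 4.3.3 on all 9 arrays, with 6 residual and 3.80 prior degrees of freedom, after testing on simulated data. Altered meant a fold change of at least 1.5 and an unadjusted P below 0.05. Python 3.11.15 was used for the rest. The alternatives tried were other backgrounds (normexp with offset 50 on the spot median, which replaced a spot mean the files lack), scalings, filters, blocks, weights and left-out arrays. The 4 IDs named are the members with the largest deficit, the highest mean level, and the largest and lowest IPC minus sham difference, all on the deposited values. The members and lists were chosen with earlier results of these data known. Gene lists could not be used without gene names.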

Additional observations from a re-analysis of the deposited data

How the results depend on the processing

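The number of probes meeting the rule was 23 on the deposited values, 57 on the processed signal with quantile normalization, 43 on it with 75th percentile scaling, 40 with scan means removed, 44 in scan 1 only and 9 with a difference of at least 1. It was 22 to 72 with 1 array left out. It stayed within 1.5 times with normexp, no background correction and the other filters on dim probes. Over the alternatives run, the median over the members was -1.05 to -0.70 for IRI minus sham and 0.95 to 1.25 for IPC minus IRI, with signs that the rule fixed. The IPC minus sham median of 0.09 was -0.03 in scan 1 only and 0.01 to 0.26 with 1 array left out.

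In IPC vs. sham, 155 probes were higher in IPC and 92 lower. The pairs of counts were 66 and 21 on the deposited values, 24 and 11 with normexp, 50 and 17 without background correction, 82 and 22 for probes well above background on all 9 arrays, 100 and 47 with the methods' t-test, 252 and 185 with a scan block, 241 and 229 in scan 1 only, and 410 and 321 with array weights. On the deposited values with the scan as a block, a combination chosen after seeing the data, they were 84 and 29. With 1 array left out they were 88 to 305 and 56 to 315, and 305 and 315 came without IPC replicate 3. The cause of these moves was not tested. With array weights 1 probe passed the adjustment, and it was not a member. No member was altered in any of the 24 alternatives, a count that the rule partly fixes. ASCRP4002486 alone reached an unadjusted P below 0.05 in limma, 0.0483 on the deposited values with the scan as a block.

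With the replicate block the counts were 118 higher and 83 lower. Same-numbered arrays had correlations of their deviations from -0.67 to 0.67, and 2 of the 9 arrays correlated best with their own number. Each number has arrays in both scans, and these correlations were positive within a scan and negative across scans. They therefore cannot decide whether the numbers pair the mice.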
